A study of Mus musculus with 24 samples.

Results

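The genes described here are 8 chemokines and both ligands of the receptor Csf1r, the growth factor receptor of macrophages. They were chosen by symbol, as the rows of the count table for Ccl2, Ccl7, Cxcl1, Cxcl2, Cxcl10, Cxcl12, Cxcl16, Cx3cl1, Csf1 and Il34. All 10 of these symbols were found, among 54532 genes, and all 10 passed the limit on expression that left 22570 genes for testing. Whole kidneys of 24 C57BL/6 mice (C57BL/6 J in the study's methods), all aged 18 days, had been sequenced as RNA, each mouse giving 1 library. The question put to these genes was whether their mRNA differed between cystic and noncystic kidneys, and whether deleting a miR-17 binding motif from Pkd1 moved them.

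Chemokines are small secreted proteins that bind G protein-coupled receptors on leukocytes and guide their movement along a gradient. Ccl2 and Ccl7 draw monocytes through Ccr2. Cxcl1 and Cxcl2 draw neutrophils through Cxcr2, and Cxcl10 is an interferon-induced ligand of Cxcr3 on T cells. Cxcl12 binds Cxcr4 and is made constitutively by many stromal and endothelial cells. Cxcl16 and Cx3cl1 are unusual in being made as membrane-anchored proteins that metalloproteases cleave to a soluble form. Csf1 and Il34 keep macrophages alive and dividing through their shared receptor Csf1r. In the kidney several of these factors are made by tubule epithelium after injury, and macrophage accumulation is a known feature of polycystic kidney disease.

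All mice had in common the missense RC allele of Pkd1, which encodes polycystin-1. In the noncystic groups the second Pkd1 allele was intact (RC/+, 3 mice). In the cystic group it was inactivated (RC/-, 5 mice) by KspCre, a Cre recombinase driven by a promoter of kidney tubule epithelium, so Cre and the cystic genotype cannot be told apart. In the D18 and D53 lines the miR-17 motif in the 3′ UTR of Pkd1 had been deleted on the RC allele by genome editing. Each line descended from a single founder, by the sample labels founder 3 for D18 and founder 2 for D53. Founder and edit therefore cannot be told apart within a line. Their noncystic groups were RC/+ D18 and RC/+ D53 (3 mice each), and their cystic groups were RC/- D18 and RC/- D53 (5 mice each). Cystic here names the RC/- genotype, edited or not, and not the extent of cysts. The study reports that the edit relieved cystic disease almost fully, with kidney weight and serum urea close to normal. Edit and lower cyst burden therefore cannot be told apart where edited RC/- kidneys are compared with RC/-, and the part of cyst burden was not tested.

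Libraries held 20.4 to 30.8 M counts. Levels are given as CPM, a gene's counts per 1 M counts of its library, and 3 counts corresponded to 0.0973 to 0.147 CPM. Pkd1 itself had group means of 50.7 to 61.7 CPM, and its counts do not separate the alleles. A list of 6 skeletal muscle markers, which kidney should hardly express, summed to at most 9.36 CPM outside the libraries numbered 20 to 27, and to 147 to 194 CPM in those. They are all of RC/- D53 together with replicates 20, 21 and 22 of RC/- D18, so in RC/- D53 this feature cannot be told apart from the genotype except through the D18 line. In whole kidney RNA, fewer cells of a type and less RNA per cell cannot be told apart.

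In RC/- kidneys 9 of the 10 genes were higher than in RC/+ kidneys and Cxcl12 was lower. All 10 passed, at a Benjamini-Hochberg adjusted p below 0.05 (limma), where 37.6% of all tested genes passed, 25.5% as higher and 12.2% as lower. The median log2 fold change of the 10 genes was 2.27, against 0.14 over all tested genes. The ranges of the RC/- and RC/+ libraries did not overlap for any of the 10 genes, and did not overlap for 37.6% of all tested genes. With the libraries scaled by TMM instead of total counts, the median over all genes was 0.01, a shift of -0.13, and the calls split into 49.7% higher instead of 67.7%, while the members split as before.

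**Figure D1:**
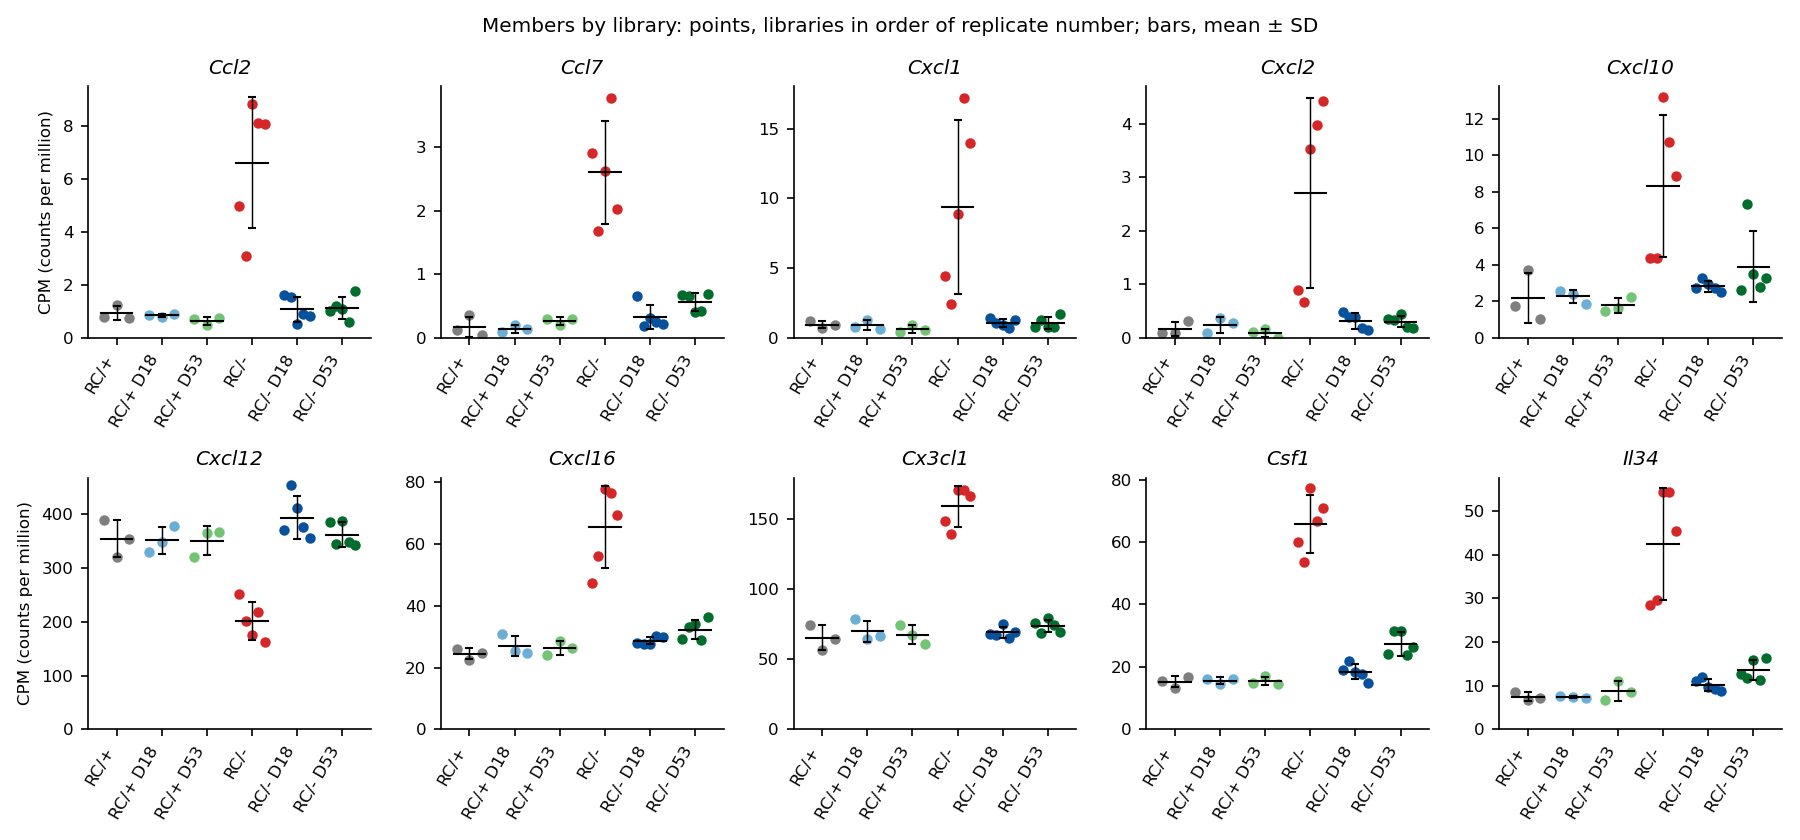
CPM (vertical axes, starting at 0, each with its own range) of the 10 genes by group, with points for the 24 libraries and bars for the mean ± SD (n = 3 in the RC/+ groups and 5 in the RC/- groups). In 9 panels the RC/- points stand above those of RC/+, and in the Cxcl12 panel they stand below.

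Length-scaled levels (TPM) spanned from 123 ± 12.2 for Cxcl12 to 0.225 ± 0.189 for Cxcl2 in RC/+ kidneys (SD, n = 3). Between them, in falling order, stood Cx3cl1 with 47.1 ± 6.59 TPM, Cxcl16 with 22.9 ± 1.72, Il34 with 10.8 ± 1.45 and Csf1 with 8.18 ± 1.02. Cxcl10, Ccl2 and Cxcl1 followed with 2.73 ± 1.72, 2.30 ± 0.662 and 1.42 ± 0.399 TPM, and Ccl7 had 0.607 ± 0.572. Neighbors whose mean ± SD ranges overlapped were Cxcl10 and Ccl2, Ccl2 and Cxcl1, Cxcl1 and Ccl7, and Ccl7 and Cxcl2. In RC/- kidneys Cx3cl1 was the most abundant of the 10, with 122 ± 9.66 TPM, and Cxcl12 had 74.5 ± 13.6. Cxcl16 and Il34 stood at 65.1 ± 12.1 and 65.0 ± 18.5 TPM, within the spread of each other and of Cxcl12. Csf1 had 37.5 ± 4.95 TPM, and Ccl2, Cxcl1, Cxcl10 and Ccl7 lay between 9.78 and 17.4 TPM, each within the spread of its neighbor (n = 5).

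**Figure D2:**
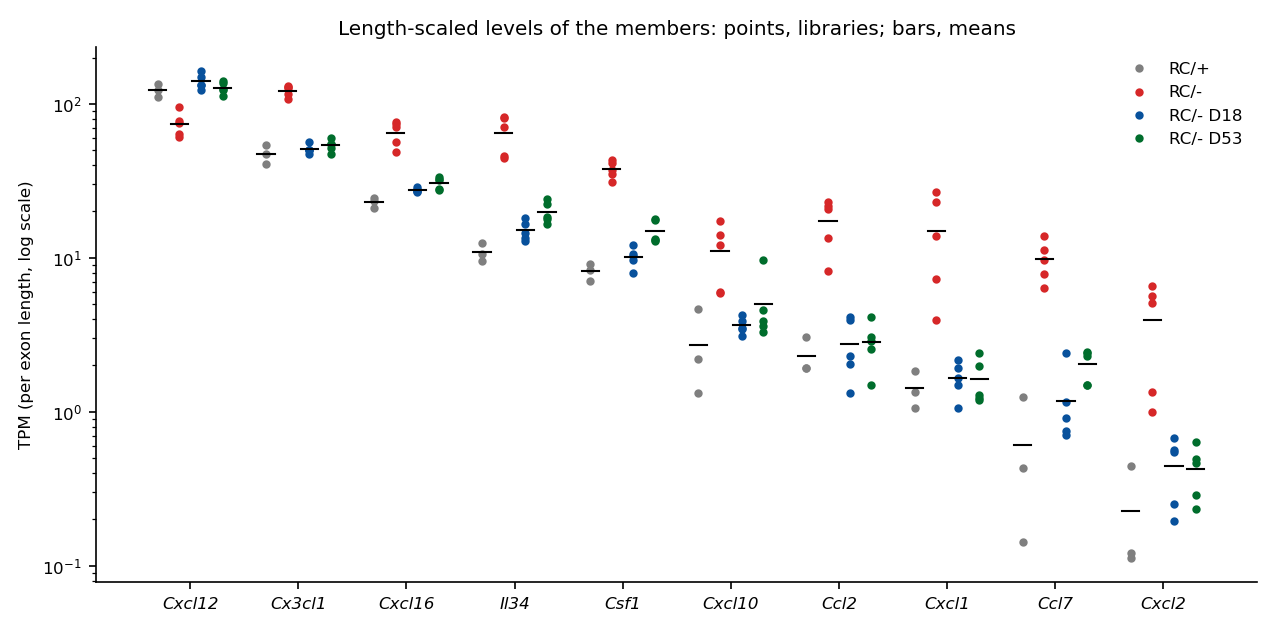
TPM (vertical axis, log scale) of the 10 genes, ordered by their mean in RC/+, in RC/+ and the 3 cystic groups, with points for libraries and bars for means. In RC/+ the means run from 123 TPM for Cxcl12 down to 0.225 TPM for Cxcl2, and in RC/- Cx3cl1 is highest.

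Promoter sequence was read for the members that a RefSeq table held, and is shown where it held a motif of NF-kB, a transcription factor known to induce chemokine genes. RefSeq sequence of 250 bases before to 50 bases after the start (GRCm38.p6) was given for 6 of the 10 genes. It was searched on both strands for GGGAANNNCC and for the interferon-response motif GAAANNGAAA, both chosen after the expression values were known. Cxcl1, Cxcl2, Cxcl10 and Csf1 held GGGAANNNCC, and 5.78% of 32851 promoters did. The Cxcl10 promoter also held GAAANNGAAA, and 3.44% of promoters did. Cxcl12 and Cx3cl1 had no match in this window. Ccl2, Ccl7, Cxcl16 and Il34 were not read. Stretches of 30 bases around the matches follow, 5′ to 3′ on the strand of the gene, with the matched bases in capitals.
Cxcl1 (chr5:90891155-90891184, plus strand): GGGAAACACCctgtactccGGGAATTTCCC
Cxcl2 (chr5:90903793-90903822, plus strand): ctgagctcaGGGAATTTCCCtggtccccgg
Cxcl10, interferon-response motif (chr5:92349083-92349112, minus strand): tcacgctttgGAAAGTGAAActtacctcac
Cxcl10 (chr5:92349029-92349058, minus strand): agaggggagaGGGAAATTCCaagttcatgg
Cxcl10 (chr5:92348973-92349002, minus strand): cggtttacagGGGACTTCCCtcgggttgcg
Csf1 (chr3:107760605-107760634, minus strand): cgggccttgaGGGAAAGTCCctaggggcca
The capitals in Cxcl1 hold 3 matches, of which the last 2 overlap on opposite strands, and those in Cxcl2 hold 2 such overlapping matches. The matches of the 2 motifs in Cxcl10 did not overlap. A match describes these letters and does not show binding in these kidneys.

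**Figure D3:**
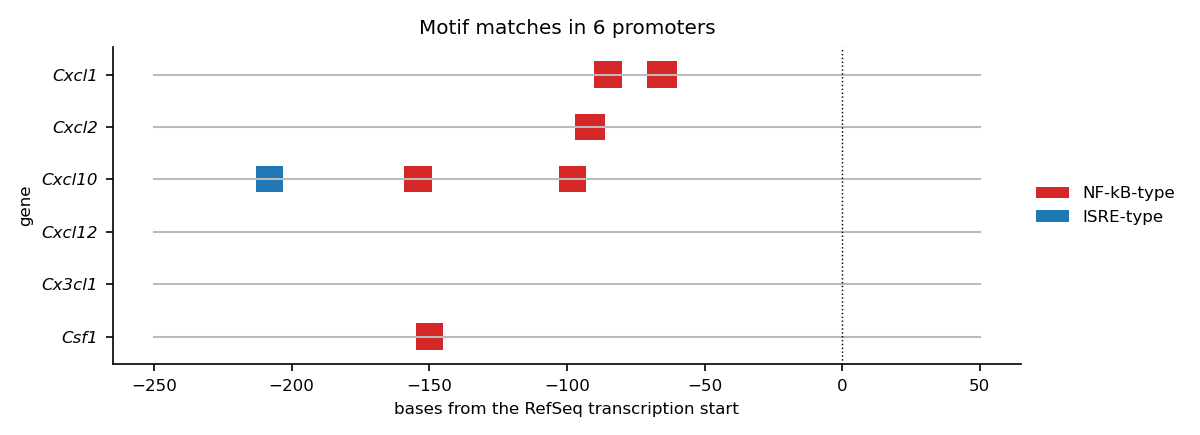
Positions of the motif matches in the 6 promoters (horizontal axis, bases from the RefSeq transcription start, which is the dotted line). Red blocks are GGGAANNNCC and the blue block is GAAANNGAAA, and the Cxcl12 and Cx3cl1 lines carry no block.

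Ccl2 (chr11:82035571-82037453, plus strand, GRCm38), the main attractant of Ccr2-bearing monocytes, rose in RC/- kidneys. Its 5 RC/- libraries had 4.96, 3.08, 8.82, 8.10 and 8.05 CPM, and its RC/+ libraries 0.776, 1.24 and 0.763 CPM. The lowest RC/- library stood above the highest RC/+ library. The log2 fold change was 2.66 (SE 0.36, adjusted p = 2.45e-06, limma). Ccl7 (chr11:82045712-82047525, plus strand), its neighbor on the chromosome and a second ligand of Ccr2, had 2.91, 1.69, 2.62, 3.78 and 2.04 CPM in RC/-. Its RC/+ libraries held only 3, 8 and 1 counts, or 0.0401 to 0.354 CPM, so the difference rests on low counts in the noncystic group. On the log2 scale Ccl7 was higher by 3.56 (SE 0.374, adjusted p = 6.66e-08).

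The neutrophil attractants rose as well, with a wide spread among the cystic kidneys. Cxcl1 (chr5:90891241-90893115, plus strand) had 4.45, 2.45, 8.86, 17.2 and 13.98 CPM in RC/- replicates 13 to 17 and 0.708 to 1.23 CPM in RC/+. Cxcl2 (chr5:90903871-90905938, plus strand) had 0.898, 0.676, 3.53, 3.99 and 4.42 CPM in the same RC/- libraries and 0.0817 to 0.321 CPM in RC/+, from 2 to 8 counts. For both genes RC/- replicates 13 and 14 were lower than replicates 15 to 17. The log2 fold changes were 2.92 for Cxcl1 (SE 0.451, adjusted p = 1.43e-05) and 3.29 for Cxcl2 (SE 0.548, adjusted p = 3.77e-05). A stretch of 116 bases of Cxcl2 was 98.3% identical to Cxcl3, so reads from that stretch are uncertain. Of 7 markers of neutrophils, the cells these factors attract, Elane, Ly6g and Mpo were under the expression limit. None of the other 4, which include Cxcr2, passed in either direction in any of the 3 comparisons with RC/- (limma). The 7 markers summed to 0.633 to 5.57 CPM in RC/- and to 1.08 to 3.55 CPM in RC/+, ranges that overlap. In RC/- D53 they summed to 3.66 to 7.22 CPM.

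Cxcl10 (chr5:92346638-92348889, minus strand), the interferon-induced ligand of Cxcr3, had 4.36, 4.39, 13.2, 10.7 and 8.89 CPM in RC/-. Its RC/+ libraries had 1.76, 3.72 and 1.04 CPM, so the nearest libraries of the groups differed by less than 1 CPM. The log2 fold change was 1.94 (SE 0.367, adjusted p = 0.000169), and 5.91% of its exon bases are shared with Art3 on the opposite strand. Among 8 other interferon-induced genes, 5 were higher and 1 was lower, and with TMM or DESeq2 size factors 2 were higher. The transcription factor Irf1 was higher by 1.09 (adjusted p = 8.82e-07), and Ifit1, Isg15 and Gbp2 had 0.86, 0.79 and 0.76, with adjusted p from 0.0301 to 0.0475. The one that fell was Rsad2, an antiviral enzyme named after its value was seen, with -0.73 (adjusted p = 5.59e-06).

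Cxcl12 (chr6:117168535-117181367, plus strand) was the one gene that fell. Its RC/+ libraries had 389.7, 321 and 354 CPM and its RC/- libraries 251, 201, 176, 218 and 162 CPM. Cxcl12 differed by -0.83 on the log2 scale (SE 0.108, adjusted p = 1.50e-06), and it stayed between -0.97 and -0.75 over 18 refits with other scalings, filters, tests, covariates or 1 library fewer. Its signaling receptor Cxcr4 had group means of 9.71 to 11.04 CPM over the 6 groups and differed by -0.05 on the log2 scale (SE 0.166, adjusted p = 0.833). Its scavenging receptor Ackr3 went the other way, from 102 ± 9.5 CPM in RC/+ to 166 ± 14 in RC/-, a difference of 0.70 on that scale (adjusted p = 9.01e-07). Endothelial markers, from a cell type that makes Cxcl12, had 3 of 6 lower and none higher, and fibroblast markers had 5 of 7 higher and none lower. Summed endothelial markers were 435 to 595 CPM in RC/- and 520.5 to 679.8 CPM in RC/+. Their part in the fall of Cxcl12 was not tested.

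Both membrane-anchored chemokines rose. Cx3cl1 (chr8:94772009-94782427, plus strand), the ligand of Cx3cr1 on monocytes and resident macrophages, had 148, 139, 171, 171 and 166 CPM in RC/- and 74.6, 56.6 and 64.7 in RC/+. Cx3cl1 differed by 1.29 on the log2 scale (SE 0.0923, adjusted p = 2.09e-10). Cxcl16 (chr11:70453983-70459984, minus strand), the ligand of Cxcr6, had 47.3 to 77.8 CPM in RC/- and 22.5 to 25.9 CPM in RC/+, and was higher by 1.40 on the log2 scale (SE 0.125, adjusted p = 6.39e-09). Of its exon bases 18.3% are shared with Zmynd15 on the opposite strand, and how strand was used in counting is not given in the sources used here. Among 6 enzymes that release or process these chemokines, 3 were higher and 2 lower, and with TMM factors 2 were higher. Adam10, which sheds both membrane-anchored chemokines, differed by 0.36 (SE 0.0896, adjusted p = 0.00232). Dpp4, a peptidase that inactivates Cxcl10 and Cxcl12, fell by 0.99 (adjusted p = 8.09e-09). The metalloprotease Mmp14 rose by 1.28 (adjusted p = 3.10e-07), and Mmp9 fell by 1.54 on the log2 scale (adjusted p = 0.00211).

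The ligands of Csf1r rose together with the receptor. Csf1 (chr3:107741048-107760469, minus strand) had 59.9, 53.7, 77.5, 66.8 and 71.0 CPM in RC/- and 15.6, 13.3 and 16.8 CPM in RC/+. Csf1 differed by 2.10 on the log2 scale (SE 0.127, adjusted p = 1.62e-11). Il34 (chr8:110741829-110805924, minus strand) had 28.4, 29.6, 54.5, 54.4 and 45.3 CPM in RC/- and 8.57, 6.64 and 7.23 CPM in RC/+, a difference of 2.44 (SE 0.199, adjusted p = 1.55e-09), and 4.95% of its exon bases are shared with Gm15894 and Gm15895 on the opposite strand. Replicates 13 and 14 were again the lowest of RC/-. Csf1r rose from 93.0 ± 1.4 to 146 ± 17 CPM, or by 0.65 (SE 0.0847, adjusted p = 1.60e-06). Of the other colony-stimulating factors, Kitl fell by 0.39 (adjusted p = 0.0022), 2 did not pass, and Csf2 was under the expression limit.

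All 13 macrophage markers rose with the chemokines in RC/-, where the background share of higher genes is 25.5%. Summed over the list they reached 569.6 to 1032 CPM in RC/- and 302 to 325 CPM in RC/+. Mrc1, the mannose receptor, rose by 2.05 on the log2 scale, Fcgr1 by 1.70, Cd68 by 1.64 and C1qc by 1.63, with adjusted p from 1.40e-09 to 4.22e-06. Csf1r and Cx3cr1 belong to both this list and the receptor list. Of 5 monocyte markers, Ccr2, Plac8 and Fn1 rose and the others did not pass. None of 8 markers of T and NK cells was higher and 1, Cd8a, was lower. Of 4 B cell markers 1 was higher. Epithelial lists moved too: 9 of 9 proximal tubule, 5 of 7 thick ascending limb and distal tubule and 4 of 5 podocyte markers were lower, and 6 of 8 collecting duct markers were higher. Cldn16 of the thick ascending limb and Synpo of podocytes, named after their values were seen, were the 2 markers of those lists that rose against the rest, by 0.28 and 0.47 on the log2 scale (adjusted p = 0.036 and 0.00337). Proximal tubule markers summed to 1613 to 4038 CPM in RC/- and to 7696 to 8266 CPM in RC/+. What part these shifts in cell markers had in the rise of the chemokines was not tested.

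Of 15 listed receptors of the 10 genes, 13 were tested, 8 were higher in RC/- and none was lower, with a median log2 fold change of 0.87. Ccr1, a receptor of Ccl7, rose from 1.16 ± 0.16 to 9.18 ± 3.7 CPM (log2 fold change 2.82, adjusted p = 1.95e-06). Ccr2, the receptor of Ccl2 and Ccl7, rose from 3.05 ± 1.2 to 12.6 ± 6.8 CPM (1.92, adjusted p = 0.000101). Cx3cr1 rose by 0.92 (adjusted p = 9.12e-06), and Sdc1, a heparan sulfate proteoglycan that binds Il34, by 1.60 (adjusted p = 2.12e-10). The decoy receptor Ackr2 rose by 1.51 (adjusted p = 0.000393). Ackr1, another decoy receptor, also passed, from at most 1 count per RC/+ library to between 4 and 15 counts per RC/- library. Cxcr2, Cxcr3, Cxcr4, Cxcr6 and Ptprz1 did not pass. Cxcr6 had 0.574 ± 0.13 CPM in RC/+ and 0.479 ± 0.40 in RC/-. Cxcr3 had 0.337 ± 0.12 and 0.776 ± 0.48 CPM. Cxcr1 and Ccr3 had at most 4 counts in any library and were not tested.

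Of the other chemokines, 15 of 24 tested were higher in RC/- and none lower, with a median log2 fold change of 1.73. Ccl8, a monocyte attractant, had 2.66 ± 1.2 CPM in RC/- and 0.151 ± 0.22 in RC/+ (log2 fold change 3.90, adjusted p = 1.81e-06). Cxcl5, a neutrophil attractant, had at most 2 counts per RC/+ library and 6 to 87 per RC/- library, and Cxcl17 at most 2 and 12 to 33. Ccl9 was higher by 2.66 on the log2 scale (adjusted p = 2.48e-08). Ccl21a had 0 counts in every library, which by counting error alone allows up to 0.147 CPM in the shallowest. Near-identical copies of Ccl21a, whose reads could be lost in counting, were not sought. Of 13 tested cytokines and NF-kB pathway genes, 10 were higher and none lower. Il6 rose by 2.05 on the log2 scale, the NF-kB subunit Relb by 1.58, the adhesion molecule Icam1 by 1.52 and the inhibitor Nfkbie by 1.38.

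**Figure D4:**
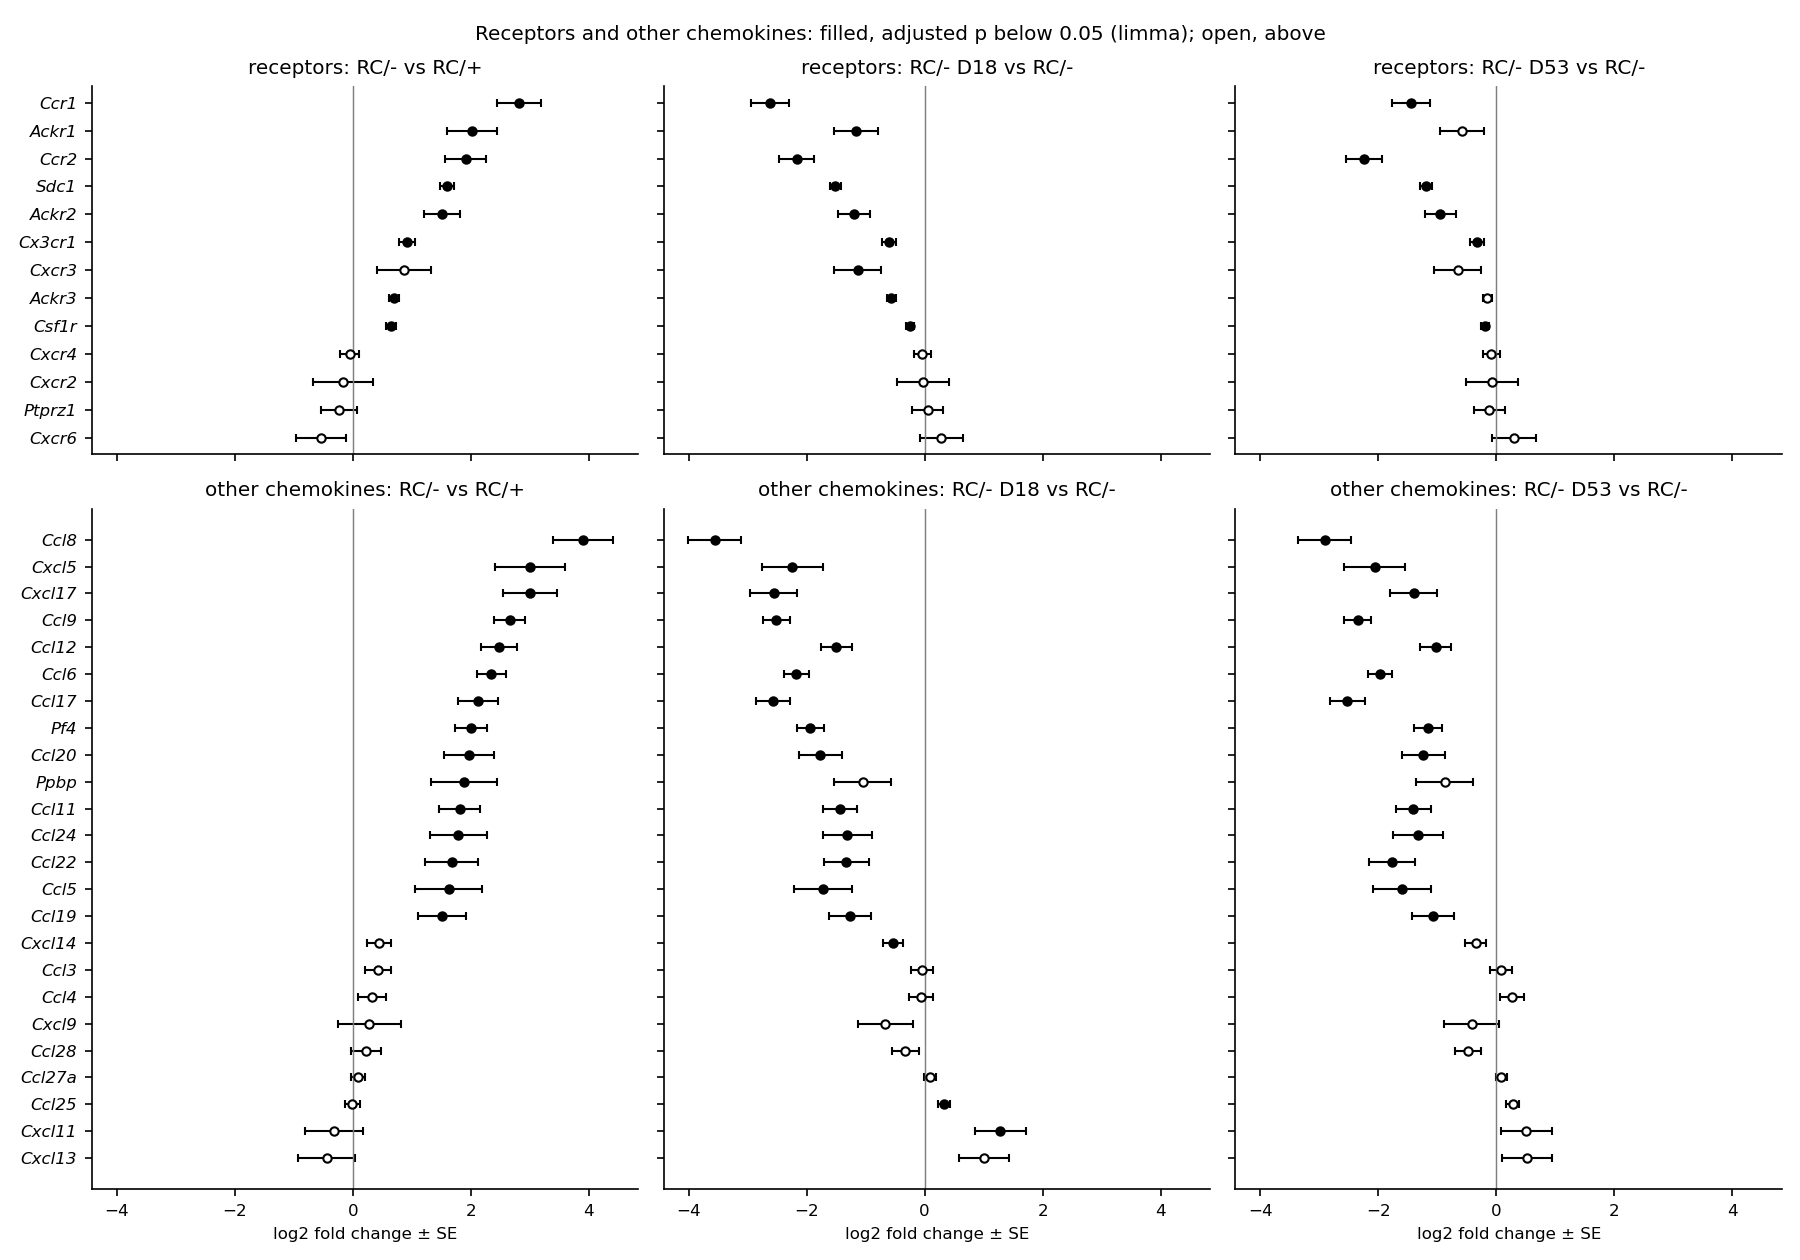
log2 fold changes ± SE (horizontal axes) of 13 receptors (top) and 24 other chemokines (bottom) in RC/- against RC/+, RC/- D18 against RC/- and RC/- D53 against RC/-, where filled points passed an adjusted p below 0.05 (limma) and open points did not. In the left panels 8 receptors and 15 chemokines are filled to the right of 0.

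In the edited RC/- kidneys, whose cystic disease was milder by the study's account, all 10 genes stood on the noncystic side of unedited RC/-. Against RC/-, 9 of the 10 were lower and Cxcl12 was higher in RC/- D18. All 10 passed, beside 41.2% of all genes, 26.9% as lower and 14.3% as higher. In RC/- D53 the same counts of 9 lower and 1 higher were found, beside 30.2% of all genes, 18.9% as lower and 11.3% as higher. Both comparisons use the same RC/- libraries, which also serve in RC/- against RC/+. The libraries of RC/- D18 and RC/- did not overlap for any of the 10 genes, with 27.8% of all genes not overlapping. Those of RC/- D53 and RC/- did not overlap for 9 genes, with 18.8% of all genes, and overlapped for Cxcl10. With TMM factors 50.2% of the called genes were higher in RC/- D18 instead of 34.8%, and 53.2% in RC/- D53 instead of 37.4%.

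**Figure D5:**
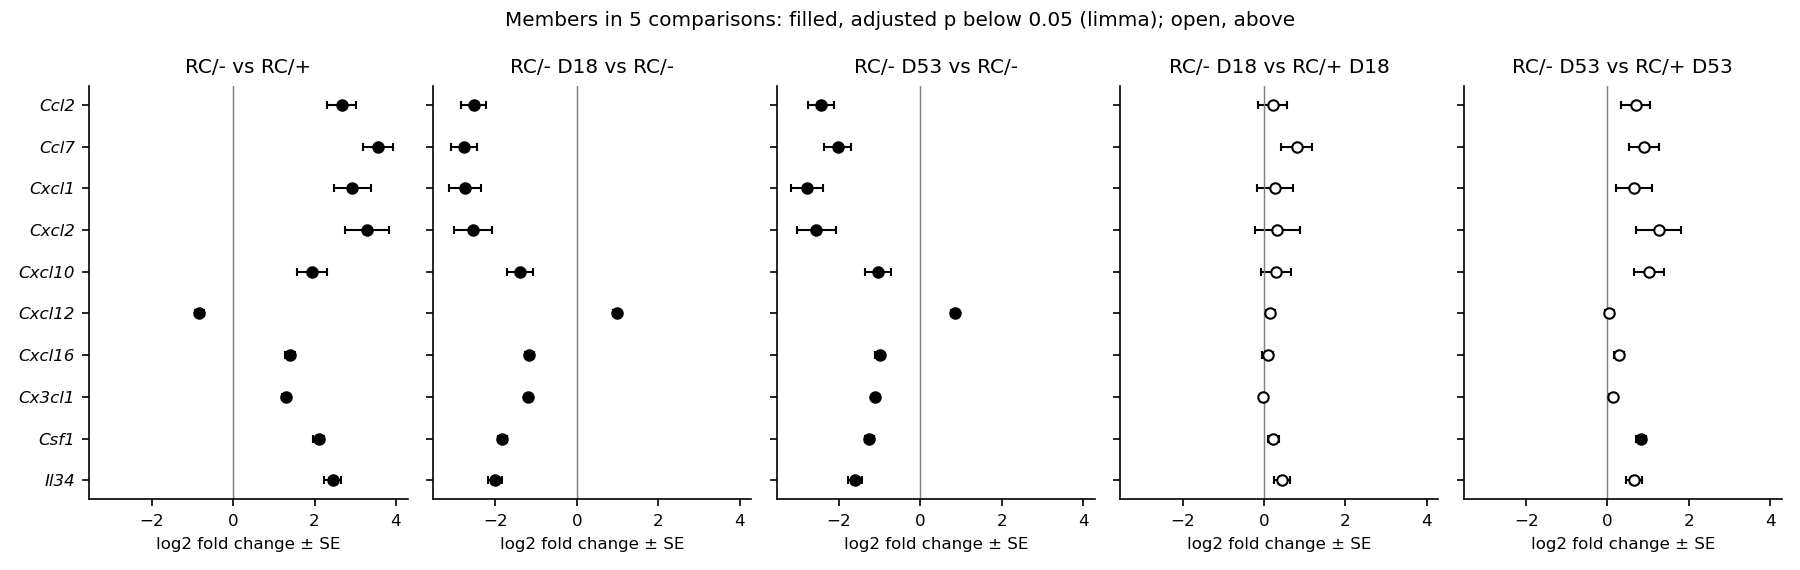
log2 fold changes ± SE (horizontal axes) of the 10 genes in 5 comparisons, where filled points passed an adjusted p below 0.05 (limma) and open points did not. All points are filled in the 3 comparisons with RC/-, no point is filled within D18, and Csf1 alone is filled within D53.

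The CC chemokines were lower in both edited lines. Ccl2 had 1.62, 1.53, 0.510, 0.904 and 0.817 CPM in RC/- D18 and 1.01, 1.18, 1.10, 0.587 and 1.77 CPM in RC/- D53. Every one of these libraries stood below the lowest RC/- library, at 3.08 CPM. Against RC/- the log2 fold changes were -2.54 (SE 0.312, adjusted p = 5.55e-07) and -2.44 (SE 0.312, adjusted p = 2.20e-06). Ccl7 had 0.192 to 0.657 CPM in RC/- D18 and 0.403 to 0.686 CPM in RC/- D53, with log2 fold changes of -2.78 and -2.03 (SE 0.324 each).

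The neutrophil attractants fell in both lines. Cxcl1 had 0.687 to 1.40 CPM in RC/- D18 and 0.778 to 1.70 CPM in RC/- D53, below the 2.45 CPM of the lowest RC/- library. Its log2 fold changes were -2.75 (SE 0.39, adjusted p = 4.06e-06) and -2.79 (SE 0.39, adjusted p = 7.18e-06). Cxcl2 had 0.142 to 0.482 CPM in RC/- D18 and 0.180 to 0.440 CPM in RC/- D53, from 4 to 12 counts per library, with log2 fold changes of -2.55 and -2.56 (SE 0.475 each). Cxcl10 fell too, with overlap in one line. Its RC/- D53 libraries had 2.59, 7.33, 3.48, 2.796 and 3.28 CPM, so replicate 24 lay above RC/- replicates 13 and 14. Its log2 fold changes were -1.40 in RC/- D18 (SE 0.318, adjusted p = 0.000975) and -1.05 in RC/- D53 (SE 0.318, adjusted p = 0.0142), and without RC/- replicate 15 the D53 value became -0.85 (adjusted p = 0.0533).

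Cxcl12 was higher in both lines. It had 371, 454, 412, 377 and 356 CPM in RC/- D18 and 386, 345, 388, 348 and 342 CPM in RC/- D53, all above the 251 CPM of the highest RC/- library. On the log2 scale it differed by 0.98 (SE 0.0935, adjusted p = 1.49e-08) and 0.86 (SE 0.0935, adjusted p = 3.05e-07). Endothelial markers were higher beside it, 4 of 6 in RC/- D18 and 2 of 6 in RC/- D53, with none lower. They summed to 539 to 689 CPM in RC/- D18 and to 469.6 to 644 CPM in RC/- D53, and their part in the rise of Cxcl12 was not tested. Cx3cl1 had 64.9 to 75.4 CPM in RC/- D18 and 68.4 to 79.4 CPM in RC/- D53, where RC/+ had 56.6 to 74.6. Its log2 fold changes against RC/- were -1.20 (adjusted p = 8.23e-11) and -1.11 (adjusted p = 1.33e-09), with an SE of 0.0799 each. Cxcl16 had 27.6 to 30.1 and 28.8 to 36.3 CPM, with log2 fold changes of -1.16 and -0.996 (SE 0.108 each).

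Csf1 and Il34 fell in both lines, Csf1 further in D18. Csf1 had 19.1, 21.9, 18.4, 17.9 and 14.96 CPM in RC/- D18 and 24.1, 31.4, 31.5, 23.6 and 26.3 CPM in RC/- D53. The libraries of the D53 group all stood above those of the D18 group. Against RC/- the log2 fold changes were -1.83 (SE 0.11, adjusted p = 2.27e-11) and -1.26 (SE 0.11, adjusted p = 1.80e-08). Il34 had 8.88 to 12.1 CPM in RC/- D18 and 11.4 to 16.3 CPM in RC/- D53, with log2 fold changes of -2.004 and -1.60 (SE 0.172 each). Compared directly, RC/- D53 exceeded RC/- D18 for Csf1 by 0.57 (SE 0.11, adjusted p = 0.0213) and for no other of the 10 genes, beside 0.266% of all genes. Without RC/- D18 replicate 22, or RC/- D53 replicate 24 or 25, the adjusted p for Csf1 was 0.0849, 0.0576 or 0.0908. Il34 had 0.41 (SE 0.172, adjusted p = 0.312). The lines have different founders, so founder and edit cannot be told apart in these differences.

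Libraries 20 to 27, the ones with counts of muscle genes, bear on the D53 results. When they entered the model as a covariate, all 10 genes still passed in RC/- D18 against RC/-, and 6 did in RC/- D53 against RC/-. Only RC/- D18 holds libraries of both kinds, so the covariate effect is estimated from that group alone. The share of all genes that passed with this covariate is not given here, so the smaller count is no result about these genes. The genes lost were Ccl2 (-1.40, adjusted p = 0.0823), Ccl7 (-1.63, adjusted p = 0.0831), Cxcl2 (-1.80, adjusted p = 0.202) and Cxcl10 (-0.91, adjusted p = 0.371). RC/- D18 replicates 18 and 19, which lack the muscle counts, passed alone against RC/- for all 10 genes. The covariate fit of RC/- D18 against RC/- rests on the same replicates, so these results are not separate. Cxcl1, Cxcl12, Cxcl16, Cx3cl1, Csf1 and Il34 passed under every refit of both comparisons.

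Some receptors and all 13 macrophage markers were lower in the edited RC/- kidneys than in unedited RC/-. Of 13 receptors 9 were lower in RC/- D18 and 6 in RC/- D53, and none was higher. With TMM factors 8 and 4 were lower, and with libraries 20 to 27 as a covariate 5 and 2. The share of all genes that passed with this covariate is not given here. The smaller counts with it, here and for the lists below, are therefore no result about these lists. Cxcr2, Cxcr4, Cxcr6 and Ptprz1 passed in neither line. Ackr3 was lower in RC/- D18 (-0.57, adjusted p = 1.97e-06, limma), where its ligand Cxcl12 was higher. In RC/- D53, where Cxcl12 was higher as well, Ackr3 did not pass (-0.16, adjusted p = 0.123, limma). Ccr2 had 2.46 ± 0.60 CPM in RC/- D18 and 2.36 ± 0.63 in RC/- D53, log2 fold changes of -2.17 and -2.24. Csf1r changed least among those that passed. It had 123 ± 6.8 CPM in RC/- D18 and 128 ± 13 in RC/- D53, differing from RC/- by -0.25 (adjusted p = 0.00858) and by -0.20 (adjusted p = 0.0464) with an SE of 0.0734 each. All 13 macrophage markers were lower in each line, 12 and 11 of them with TMM factors and 12 and 7 with the covariate. They summed to 372 to 408 CPM in RC/- D18 and 404 to 569.5 CPM in RC/- D53. Of the other chemokines 15 and 14 were lower, and 2 named after their values were seen, Cxcl11 and Ccl25, were higher in RC/- D18 by 1.29 and 0.33 (adjusted p = 0.0188 and 0.0157). Of the cytokine and NF-kB genes 10 and 9 were lower. Tubule and stromal lists moved in the same comparisons. All 9 proximal tubule markers were higher in each line, summing to 6914 to 9856 CPM in RC/- D18 and to 5517 to 7115 CPM in RC/- D53. Of 8 collecting duct markers 7 were lower in RC/- D18 and 4 in RC/- D53, and of 7 fibroblast markers 5 and 3 were lower, with none of either list higher. With libraries 20 to 27 as a covariate 3 of 9 proximal tubule markers were higher, and 2 of 8 collecting duct markers and no fibroblast marker were lower, in RC/- D53. What part these shifts had in the fall of the chemokines was not tested.

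Within the edited lines, where RC/- and RC/+ mice share the motif deletion and no library is shared with the unedited groups, few differences passed. In RC/- D18 against RC/+ D18 none of the 10 genes passed (limma, lowest adjusted p = 0.503), beside 0.266% of all genes. An unadjusted p below 0.05 was found for 2 of the 10, beside 2011 of the 22570 tested genes. Those 2 were Ccl7 with a log2 fold change of 0.80 (SE 0.374) and Il34 with 0.45 (SE 0.199). No receptor, other chemokine or macrophage marker passed there. Csf1 had 0.24 (SE 0.127, adjusted p = 0.632), where the unedited mice had 2.10. None of the 10 genes passed there under any alternative.

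In RC/- D53 against RC/+ D53, of the 10 genes, Csf1 alone passed, beside 2.60% of all genes. Its RC/+ D53 libraries had 14.7, 17.01 and 14.5 CPM, below all 5 RC/- D53 libraries. The log2 fold change was 0.82 (SE 0.127, adjusted p = 0.000354), and over 18 refits the adjusted p reached at most 0.00999. Il34 followed with 0.64 (SE 0.199, adjusted p = 0.0922) and Cxcl10 with 1.01 (SE 0.367, adjusted p = 0.181). For Ccl7, Cxcl2, Cxcl10, Cxcl16, Csf1 and Il34 the RC/- D53 libraries stood above all RC/+ D53 libraries, with 11.6% of all genes not overlapping. The same 6 genes had an unadjusted p below 0.05 (limma), beside 3013 of the 22570 tested genes. For Cxcl2 the nearest libraries of RC/- D53 and RC/+ D53 held only 5 and 4 counts, and for Ccl7 11 and 8. Of the receptors 3 were higher: Csf1r had 0.43 (adjusted p = 0.00354), Cx3cr1 0.59 (adjusted p = 0.0155) and Ackr3 0.36 (adjusted p = 0.0226). Of the other chemokines Ccl12, a Ccr2 ligand named after its value was seen, had 1.60 (adjusted p = 0.00239), and 7 of 13 macrophage markers were higher. None of these receptors, chemokines or macrophage markers passed with libraries 20 to 27 as a covariate, and Csf1 did (1.08, adjusted p = 0.00999). The share of all genes that passed with this covariate is not given here, so the losses are no result about these lists.

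The interaction term compares the cystic difference of an edited line with that of the unedited mice. It passed for all 10 genes in D18, beside 17.1% of all genes, and for 8 genes in D53, beside 11.3%. With TMM factors 51.5% of the D18 calls were positive instead of 36.9%, and 60.2% of the D53 calls instead of 41.9%. For Csf1 the cystic log2 fold change was smaller by 1.86 in D18 (SE 0.18, adjusted p = 6.06e-07) and by 1.28 in D53 (SE 0.18, adjusted p = 0.000153). Cx3cl1 differed by -1.30 (SE 0.131, adjusted p = 1.02e-06) and -1.16 (SE 0.131, adjusted p = 1.44e-05), and Cxcl12 by 0.99 (SE 0.153, adjusted p = 9.46e-05) and 0.87 (SE 0.153, adjusted p = 0.000872). Cxcl2 and Cxcl10 did not pass in D53, with -2.03 (SE 0.775, adjusted p = 0.0931) and -0.93 (SE 0.519, adjusted p = 0.273). In D18 the Cxcl10 term, -1.64 (SE 0.519, adjusted p = 0.0308), missed the threshold in 11 of 27 refits. With libraries 20 to 27 as a covariate the term passed for 8 genes in D18 and 5 in D53. The share of all genes passing with this covariate is not given here. In D53 Ccl2 went from -1.97 to -0.93 (adjusted p = 0.513) and no longer passed, nor did Ccl7 with -2.26 (adjusted p = 0.100) and Cxcl1 with -1.93 (adjusted p = 0.275). In D18 those lost were Cxcl2 with -2.51 (adjusted p = 0.0692) and Cxcl10 with -1.56 (adjusted p = 0.105). Both interactions use the RC/- and RC/+ libraries.

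The motif deletion alone, in noncystic kidneys, moved none of the 10 genes past the threshold. In RC/+ D18 against RC/+ the adjusted p was 0.983 or above, beside 0.00443% of all genes (1 gene, with 1013 at an unadjusted p below 0.05). In RC/+ D53 against RC/+ it was 1, beside 0% of all genes (limma; 525 at an unadjusted p below 0.05). No member reached an unadjusted p of 0.05 in either. With 3 mice a group the SE of these differences ran from 0.103 for Cx3cl1 to 0.613 for Cxcl2 on the log2 scale. Csf1 means were 15.2 ± 1.80, 15.6 ± 1.03 and 15.4 ± 1.38 CPM in RC/+, RC/+ D18 and RC/+ D53.

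Between mice of one group the genes varied together only in part. With group means removed from log2 CPM, 34 of 45 pairs had a positive correlation over 24 libraries. Cxcl16 and Il34 had a Pearson r of 0.796 (permutation within groups, adjusted p = 0.0311 over 45 pairs) and a Spearman rho of 0.769 (permutation, adjusted p = 0.0464). Without the 2 libraries farthest from the median of Cxcl16, r was 0.704. Csf1 and Il34 had an r of 0.652 (permutation, adjusted p = 0.0474) and a rho of 0.655 (permutation, adjusted p = 0.0561), and r was 0.584 without 2 libraries. Cxcl2 and Csf1 had an r of 0.638 (permutation, adjusted p = 0.0474), a rho of 0.581 (permutation, adjusted p = 0.0737) and 0.545 without 2 libraries. With TMM factors 1 pair passed, where r for Cxcl16 and Il34 was 0.779. The genes whose within-group pattern was most like that of Csf1 were Trim6, Rcan2, Akna, Icam1 and Tifa, with r of 0.748 to 0.812 among 15115 genes compared. For Ccl2 they were Llph, D630033A02Rik, Ifi30, Ccl12 and Cmc1, with r of 0.766 to 0.786. These values share the depth of each library, and no test was attached to them.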

How the data were processed

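Gene counts were deposited by the authors as one table of whole-number, unnormalized counts for 24 libraries of whole kidney RNA, made with Trim Galore 0.6.3 and STAR 2.5.3a against GRCm38 with Ensembl 94 genes per the labels and the study's methods. Which strand column of the counter was kept is not given in the sources used here, so reads of genes that overlap on opposite strands may not have been separated. Counts of genes without a symbol made up at most 0.0261% of a library. Replicates of a group differed by more than counting noise (39 pairs, chi-square per degree of freedom 8.45 or more).

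Counts were scaled to log2 CPM by total counts with a prior count of 2, which understates the fold change of genes with few counts. Genes with a mean log2 CPM of -3 or more were kept (22570), and limma 3.58.1 (limma-trend, edgeR 4.0.16, R 4.3.3) was fitted to all 24 libraries with 6 group means and no covariate. Tests were two-sided, and p-values were adjusted by Benjamini-Hochberg over all genes tested. The fit was tested on simulated data. Alternatives were TMM and DESeq2 1.42.0 size factors, the edgeR quasi-likelihood and DESeq2 tests, other filters and prior counts, only the groups compared, sex or libraries 20 to 27 as a covariate, subsets of RC/- D18, and each library left out. TPM used exon lengths and positions of GENCODE M21, which held 54495 of 54532 gene IDs. Copies of at least 100 bases at 95% identity were sought with blastn 2.17.0+. Permutations used numpy 2.4.6, ranks scipy 1.17.1 and figures matplotlib 3.10.9.

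The 10 genes and all lists were chosen with earlier results of these data known. All 10 were to be named, with those receptors that were called or described. Of each other list up to 4 called genes with the largest log2 fold change in RC/- against RC/+ were to be named, together with any at 0 in every library, and the 5 genes nearest to Ccl2 and to Csf1. Of the receptors, 1 is not reported here and was left out of the receptor list. Libraries were labelled as separate mice, and counting limits (3 counts) cover counting error only.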

Additional observations from a re-analysis of the deposited data

Results flagged for a closer look

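In 2 of 30 groups of 5 libraries, 1 library stood far from the other 4 by Dixon's ratio, which chance gives in about 1 of 20 groups. Ccl7 had 0.657 CPM in RC/- D18 replicate 18, and Cxcl10 had 7.33 CPM in RC/- D53 replicate 24.

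The cystic difference of the edited lines differed from that of the unedited line by the interaction term (limma, Benjamini-Hochberg adjusted p below 0.05). In D18 the term was -2.45 for Ccl2, -2.76 for Ccl7, -2.65 for Cxcl1, -2.96 for Cxcl2, -1.64 for Cxcl10 and 0.99 for Cxcl12. It was -1.30 for both Cxcl16 and Cx3cl1, -1.86 for Csf1 and -1.996 for Il34. In D53 it was -1.97 for Ccl2, -2.66 for Ccl7, -2.27 for Cxcl1, 0.87 for Cxcl12, -1.11 for Cxcl16, -1.16 for Cx3cl1, -1.28 for Csf1 and -1.80 for Il34. With libraries 20 to 27 as a covariate the terms for Ccl2 (-0.93), Ccl7 (-2.26) and Cxcl1 (-1.93) in D53 and for Cxcl2 (-2.51) and Cxcl10 (-1.56) in D18 no longer passed.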

How the results depend on the processing

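All 10 calls of RC/- against RC/+ kept their direction and their side of the threshold in 18 refits each, as did all 10 of RC/- D18 against RC/- in 21. With libraries 20 to 27 as a covariate, 6 members passed in RC/- D53 against RC/-, 5 in the D53 interaction and 8 in the D18 interaction. For these counts the share of all genes is not given here. Csf1 in RC/- D53 against RC/- D18 was the 1 call there, which became 0 in a fit of only those groups (adjusted p = 0.0634, limma) and ranged from 0 to 1 over single libraries left out. With a log2 fold change of at least 1 as well, 0 members passed there and in RC/- D53 against RC/+ D53. With TMM factors 1 pair of members passed the within-group correlation instead of 3. Cxcl10 missed the threshold of the D18 interaction in 11 of 27 refits, with an adjusted p of up to 0.127 (limma). Without RC/+ replicate 5 or RC/+ D53 replicate 11, Cxcl1 missed it in the D53 interaction (adjusted p = 0.0681 and 0.0743, limma), and without RC/- replicate 13 or 14 Cxcl2 passed it (0.0468 and 0.0271). With RC/- D18 replicates 18 and 19 alone, Cxcl2 missed it in the D18 interaction (0.0791). The cause was not tested in any of these. No call reversed. No paired analysis was made, because replicate numbers run on from group to group and the labels used here name no litters. Depth limits Ccl7 and Cxcl2 most, with 0 to 9 counts per RC/+, RC/+ D18 or RC/+ D53 library.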
